A study of Mus musculus with 2 samples.

Results

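The genes described here are the fibroblast growth factor (FGF) ligands, their receptors and the genes that FGF signalling itself switches on to limit or carry the signal. They were chosen by gene name among the array's non-control sequences: every Fgf or Fgfr gene with a number, every Spry or Spred gene with a number, and Dusp6, Etv4, Etv5, Il17rd and Fgfrl1. This gave 38 of the 29875 genes on the array, namely 22 ligands, 5 receptors, 9 feedback genes and 2 ETS transcription factors, read by 62 different array sequences. In all, 31 of the 38 genes were bright enough to be tested, and all 5 receptors, all 9 feedback genes and both ETS factors were among them. The other 7 were ligands.

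The samples were total RNA of ureters from NMRI mouse embryos at E14.5, hybridised in pairs on 2 two-colour arrays. The labelled knockout carries 2 floxed Smad4 alleles and a Cre driver that the series title gives as Pax2-cre/+ and the sample labels as Pax-cre/+, and the title's short name, Smad4cKO (UE), places the loss in the ureteric epithelium. The labelled control is Smad4(fl/?), so it carries a floxed allele and a second one that is not specified. On the female array (replicate 1) the knockout was in Cy3, and on the male array (replicate 2) it was in Cy5, so sex and dye orientation cannot be told apart. The sources used here do not say how many embryos make up a sample, so the p-values speak only for these 2 arrays. Their measure of spread comes mainly from a prior over all genes tested (9.21 degrees of freedom). A gene's own 2 ratios add 1.

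FGF ligands bind receptor tyrosine kinases on the cell surface, with heparan sulphate as a co-factor, and the activated receptors switch on the RAS-ERK cascade. ERK then induces the ETS factors Etv4 and Etv5, which carry the response, and Sprouty, Spred, Dusp6 and Il17rd (Sef) proteins, which damp it, so these genes are widely used as readouts of the pathway. In the developing ureter and kidney the epithelium and the mesenchyme around it exchange FGF signals, with Fgf7 and Fgf10 made by mesenchyme and acting on Fgfr2 in epithelium, and Fgf9 often made by epithelium and acting on mesenchyme.

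Smad4, the targeted gene, read -0.58 on replicate 1 and -0.08 on replicate 2 as the log2 ratio of labelled knockout over labelled control. Its mean was -0.33 ± 0.36 (SD, n = 2), with an unadjusted p of 0.0416 and an adjusted p of 1.00 in limma. Ratios are given in that direction throughout, taken from the dyes in the labels, whereas values of the authors' deposited table run the other way by these dyes (correlation of -0.822 and -0.739 across sequences on the 2 arrays), although the titles there put the knockout first. The whole-ureter samples hold several cell types. The 14 general epithelium markers were higher in the knockout on both arrays in 13 cases (median 0.30 on replicate 1 and 0.19 on replicate 2), and their summed intensity was 233022 to 262508 in the knockout samples and 216027 to 227108 in the controls. The 12 ureteric mesenchyme markers had medians of -0.25 and -0.03, with summed intensities of 217440 to 223735 in the knockout samples and 216811 to 250642 in the controls. The 13 neuron and glia markers tested turned over between the arrays, with a median of -0.45 on replicate 1 and 0.59 on replicate 2. Of the 10 urothelial differentiation markers 6 passed the test, all higher in the knockout. All markers of both ureter lists were above background. The part of these shifts in the FGF results was not tested, and in bulk RNA fewer cells of a type and less RNA per cell cannot be told apart.

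No FGF gene passed the test for a difference between labelled knockout and labelled control. At adjusted p under 0.05 (limma, Benjamini-Hochberg over 20104 genes) 0 of the 31 were called, where 0.328% of all genes tested were. At an unadjusted p under 0.05, 1 of the 31 was called, Fgfr3, against 4.55% of all genes, which is near the background share. None differed by 1.5-fold or more the same way on both arrays, a size that 0.368% of all genes reached. The largest mean difference of any member was 1.24-fold, for Fgf9, and the 95% intervals of the 31 means reached from -0.66 to 0.54 on the log2 scale.

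The FGF genes lay lower in the knockout more often on one array than on the other. On replicate 1, 25 of the 31 had a ratio below 0, compared with 51.7% of all genes, and the median over the members was -0.15 against -0.009 over all genes. On replicate 2, 17 of the 31 were below 0, compared with 51.1% of all genes, and the median was -0.02 against -0.003. Over both arrays the median of the member means was -0.13. Without replicate 1 it is the -0.02 of replicate 2 alone, so its size came mainly from replicate 1. The median of the means was -0.08 for the 15 ligands, -0.15 for the 5 receptors, -0.15 for the 9 feedback genes and -0.13 for the 2 ETS factors. Both of the latter groups differed in sign between arrays: the feedback genes had a median of -0.20 on replicate 1 and 0.01 on replicate 2, and the ETS factors -0.39 and 0.13. The ligands had -0.11 and -0.05, and the receptors -0.17 and -0.09.

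By direction, 14 of the 31 were lower in the knockout on both arrays (24.6% of all genes) and 3 were higher on both, Fgfr3, Fgf8 and Dusp6 (21.7% of all genes). Another 11 were lower on replicate 1 and higher on replicate 2, which is the pattern of a sequence brighter in Cy5 on both arrays (27.1% of all genes). The remaining 3, Fgf14, Fgf6 and Spred3, were higher on replicate 1 and lower on replicate 2, brighter in Cy3 on both (26.5% of all genes). In 10 of the 31 both knockout samples lay below both control samples (15.3% of all genes), and in 2, Fgf8 and Fgfr3, both lay above (13.9% of all genes). The 10 were the ligands Fgf5, Fgf9, Fgf11, Fgf12 and Fgf18, the receptors Fgfr1 and Fgfrl1, and the feedback genes Spry2, Spry4 and Spred1, each by its brightest sequence. These shares describe genes chosen with earlier results of these data known, and carry no test.

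**Figure D1:**
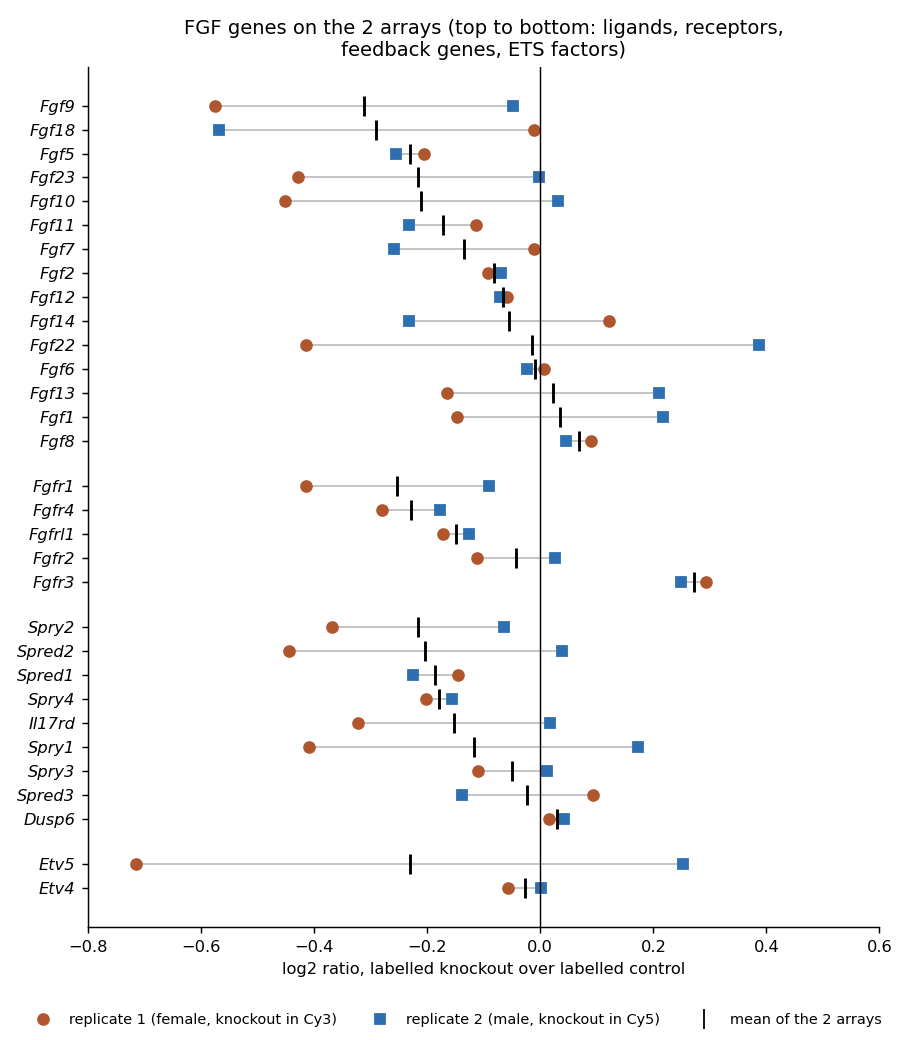
Log2 ratio of labelled knockout over labelled control (x axis) for each of the 31 FGF genes tested (y axis), by role; circles are replicate 1, squares replicate 2 and bars the mean of the 2 arrays. Most circles lie left of 0 (25 of 31), the squares lie on both sides (17 of 31 below 0), and Fgfr3 is the only gene with both arrays above 0.2.

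**Figure D2:**
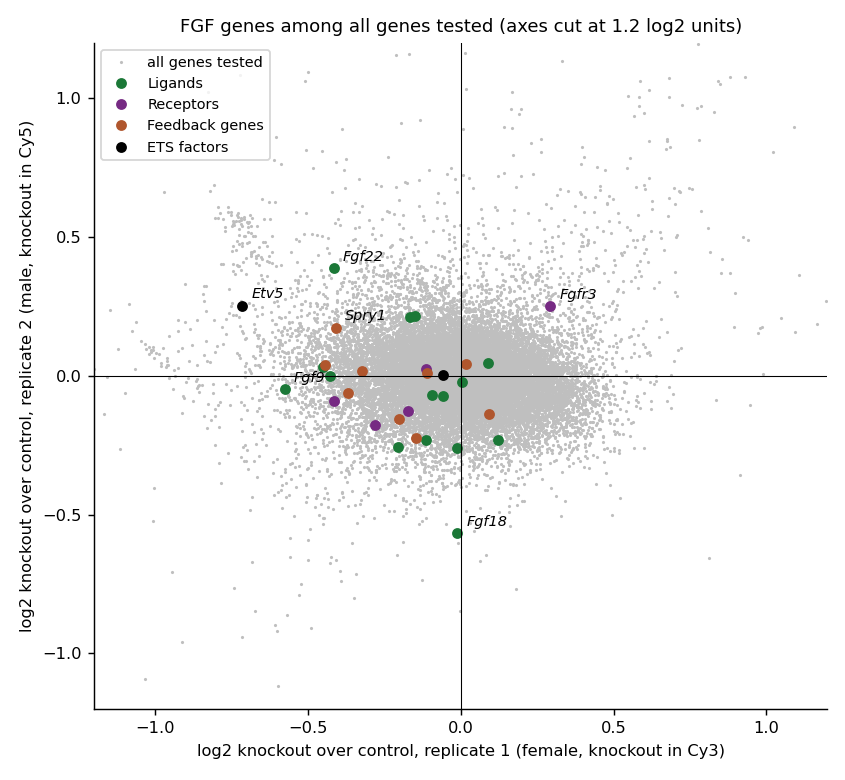
Log2 ratio on replicate 1 (x axis) against replicate 2 (y axis) for the 20104 genes tested (grey) and the FGF genes coloured by role. The FGF genes spread mainly to the left of the cloud's centre, with Etv5 farthest left and Fgf18 lowest.

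The ligands came first in order of role. Among the secreted ones, Fgf9, which signals from epithelium to mesenchyme in many organs, had the largest mean ratio of any member. Its normalised log2 intensity was 9.95 in knockout 1, 10.52 in control 1, 10.38 in knockout 2 and 10.43 in control 2. Knockout 1 stood apart from the other 3 samples, and both knockout samples lay below both controls. The log2 ratio was -0.58 on replicate 1 and -0.05 on replicate 2. Its mean was -0.31 ± 0.37 (SD, n = 2), with an unadjusted p of 0.0559 in limma.

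Fgf18, a ligand known from bone, cartilage and lung, had the opposite split between arrays. Its log2 intensity was 11.94 in knockout 1, 11.95 in control 1, 11.66 in knockout 2 and 12.23 in control 2. Here the difference came from replicate 2: its control was the highest sample and its knockout the lowest, while the samples of replicate 1 were almost level. The mean ratio was -0.29 ± 0.39 (SD, n = 2), from -0.01 on replicate 1 and -0.57 on replicate 2. A second kept sequence of Fgf18 gave 0.11 on replicate 1 and -0.61 on replicate 2. The pair share 26 of their 60 bases, printed here to show that they are not independent readings of the transcript.
Fgf18, bases shared by both array sequences: acgaggaaactgcgagaaaccaaagt
The used sequence lies at chr11:33017440-33017499 (mm9, minus strand) and the other at chr11:33017474-33017533.

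Fgf5, best known for ending the growth phase of hair follicles, was among the most even ligands across arrays. Its log2 intensity was 8.48 in knockout 1, 8.69 in control 1, 8.49 in knockout 2 and 8.75 in control 2. The controls were close to each other and so were the knockout samples, with no overlap between them. The mean ratio was -0.23 ± 0.035 (SD, n = 2), with an unadjusted p of 0.0811 in limma.

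Fgf10 and Fgf7 are mesenchymal ligands of the epithelial form of Fgfr2. The log2 intensity of Fgf10 was 9.83 in knockout 1, 10.28 in control 1, 9.91 in knockout 2 and 9.88 in control 2. Control 1 alone was high and the other 3 samples lay close together, giving ratios of -0.45 on replicate 1 and 0.03 on replicate 2. For Fgf7 it was control 2 that was high, with a log2 intensity of 11.36 in knockout 1, 11.37 in control 1, 11.38 in knockout 2 and 11.64 in control 2 and a mean ratio of -0.13 ± 0.18 (SD, n = 2). The knockout and control samples of Fgf7 overlapped.

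Fgf8, an early inducer of nephron formation in the kidney, differed little: 7.94 in knockout 1, 7.85 in control 1, 7.91 in knockout 2 and 7.86 in control 2, with a mean ratio of 0.07 ± 0.031 (SD, n = 2). Fgf2, a ligand that lacks a classical secretion signal, was 7.07 in knockout 1, 7.16 in control 1, 6.997 in knockout 2 and 7.07 in control 2, with knockout and control samples overlapping and a mean of -0.08 ± 0.017 (SD, n = 2). Fgf1, which also lacks that signal, turned over, with -0.15 on replicate 1 and 0.22 on replicate 2. Fgf6, a ligand of the muscle lineage, read 0.01 on replicate 1 and -0.02 on replicate 2. A second Fgf6 sequence, too dim on replicate 2 to be kept, read -0.71 on replicate 1 and -0.07 on replicate 2. Its spots above background were 3 in knockout 1, 4 in control 1, 0 in knockout 2 and 1 in control 2.

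Fgf22, a synaptic organiser in the brain, had the second widest gap between arrays of all members. Its log2 intensity was 7.93 in knockout 1, 8.35 in control 1, 8.35 in knockout 2 and 7.96 in control 2. The channels labelled with Cy5, control 1 and knockout 2, were level and higher, and those labelled with Cy3 were lower. The ratios were -0.41 on replicate 1 and 0.39 on replicate 2, so the mean of -0.01 ± 0.57 (SD, n = 2) hid a large disagreement.

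Fgf11 to Fgf14 are FGF-homologous factors that stay inside the cell and act on sodium channels and the cytoskeleton without engaging FGF receptors. Fgf11 was 11.78 in knockout 1, 11.89 in control 1, 11.60 in knockout 2 and 11.83 in control 2, so both knockout samples were below both controls, with a mean ratio of -0.17 ± 0.08 (SD, n = 2). A second kept Fgf11 sequence was much dimmer, with log2 intensities from 7.13 in knockout 1 to 7.27 in knockout 2. It was nearly level, at -0.03 on replicate 1 and 0.02 on replicate 2, and the mean over both sequences was -0.09. Fgf12 had a mean of -0.07 ± 0.009 (SD, n = 2), but its second kept sequence had the opposite sign on both arrays, with a mean of 0.07. Fgf13 was 7.63 in knockout 1, 7.80 in control 1, 7.74 in knockout 2 and 7.53 in control 2, where the knockout was below the control on replicate 1 and above it on replicate 2. Its ratios were -0.17 on replicate 1 and 0.21 on replicate 2, and those of Fgf14 were 0.12 on replicate 1 and -0.23 on replicate 2. The median of the 4 was -0.09 on replicate 1 and -0.15 on replicate 2, while that of the 11 secreted ligands tested was -0.15 and -0.02, so the order of the groups reversed between arrays.

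Fgf23, a bone hormone that lowers blood phosphate, needs its array sequences in view. The sequence used was bright in all 16 spots, at 14.72 in knockout 1, 15.15 in control 1, 14.71 in knockout 2 and 14.71 in control 2, with ratios of -0.43 on replicate 1 and -0.003 on replicate 2. The second Fgf23 sequence, at chr6:127031289-127031348 (mm9, plus strand), was above background in 0 of 16 spots, although both name the same transcript. The first bases of each are shown, with the CA repeat of the bright one in capitals.
Fgf23, bright sequence, first 30 bases: cCACACACACACACACACACAtacatgtaa
Fgf23, dim sequence, first 30 bases: tttagtgaaagcctccgctagcaggttgac
The repeat is 20 bases long, within a 60-base sequence at chr6:127030758-127030817. Across the whole array, 54 sequences held at least 12 bases of CA repeat, and 94.4% of them were kept as bright enough, against 67.3% of all 39429 sequences. For a TG repeat of that length the share kept was 98.1% of 104 sequences. No other member sequence held either repeat. How far the Fgf23 transcript itself contributed to this signal was not tested.

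Fgf8 and Fgf22 showed the same split between bright and dim sequences. For each, 1 dim sequence is printed whole beside the first 30 bases of the bright one. Of the 3 Fgf8 sequences, 2 were above background in 0 of 16 spots.
Fgf8, dim sequence, 0 of 16 spots: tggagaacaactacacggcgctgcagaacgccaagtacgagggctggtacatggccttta
Fgf8, bright sequence, first 30 bases, 12 of 16 spots: aaggggaggggctggggagctgccttctag
Fgf22, dim sequence, 0 of 16 spots: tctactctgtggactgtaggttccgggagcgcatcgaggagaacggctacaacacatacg
Fgf22, bright sequence, first 30 bases, 16 of 16 spots: gctctgcttttttgagtaggtgtattttaa
In mm9 these lie at chr19:45811668-45811727 and chr19:45811355-45811414 (minus strand) for Fgf8, and at chr10:79219513-79219572 and chr10:79221282-79221341 (plus strand) for Fgf22. Spots marked as outliers are not counted as above background, and all 12 usable spots of the bright Fgf8 sequence were. In all, 18 members were read by more than 1 sequence. In 8 of these at least 1 sequence was kept while at least 1 other was above background in 0 of 16 spots: Fgf1, Fgf2, Fgf8, Fgf12, Fgf14, Fgf22, Fgf23 and Fgfr3. With these 8 left out, 0 of the remaining 23 members passed the test and the median of their means was -0.17.

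The 7 ligands below the brightness rule were Fgf3, Fgf4, Fgf15, Fgf16, Fgf17, Fgf20 and Fgf21. Fgf3, Fgf4, Fgf17 and Fgf21 were above background in 0 of 16 spots, Fgf15 in 5 and Fgf16 in 6. One Fgf20 sequence was above background in 3 spots and the other in 0. All 6 Fgf16 spots were on replicate 1, where 4 were in the control and 2 in the knockout. No ratio is given for these genes, and at this sensitivity a difference between the groups could not be seen.

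**Figure D3:**
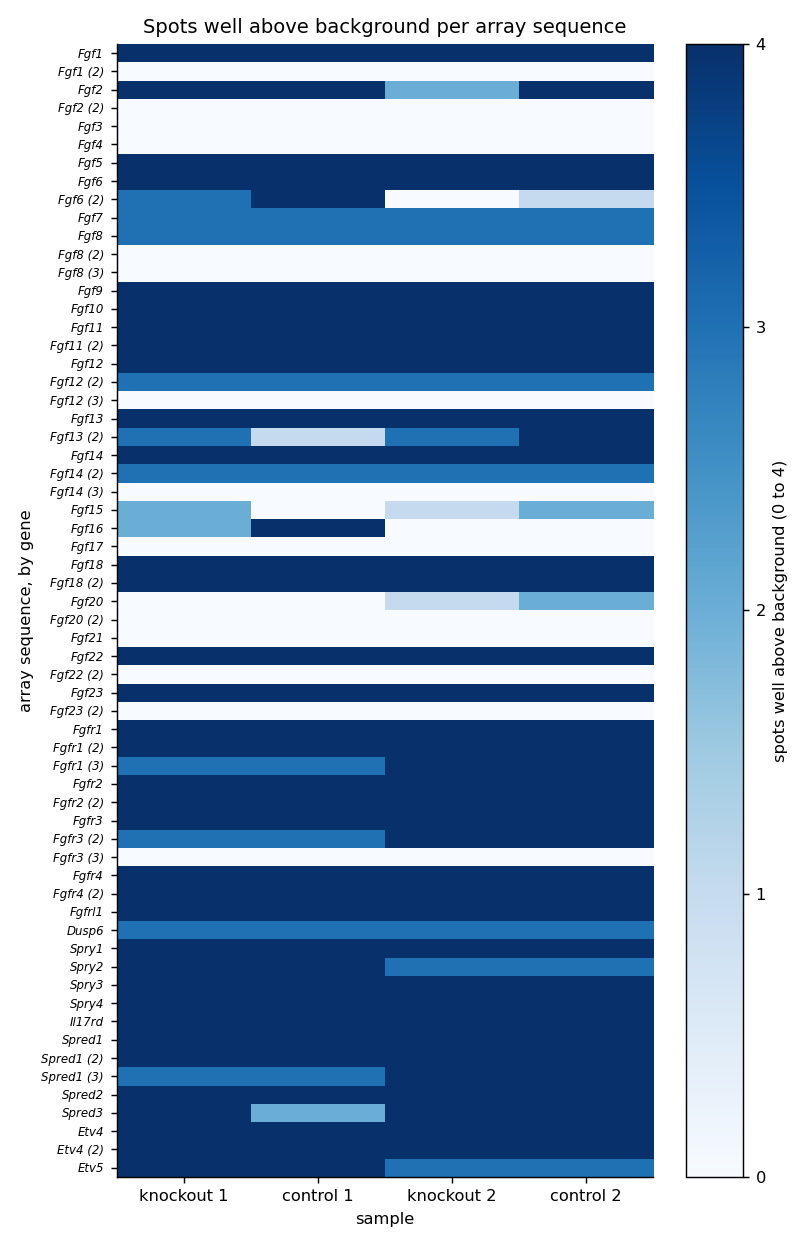
Number of spots well above background (colour, 0 to 4) for each of the 62 array sequences of the 38 genes (rows; a number in brackets marks a gene's further sequences) in each sample (columns). White rows, such as Fgf3, Fgf4 and the second sequences of Fgf22 and Fgf23, are sequences with 0 of 16 spots above background.

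Fgfr3 was the one receptor with a higher level in both knockout samples, and the only member with an unadjusted p under 0.05. FGFR3 is a receptor tyrosine kinase prominent in urothelium and cartilage. Its log2 intensity was 12.69 in knockout 1, 12.40 in control 1, 12.54 in knockout 2 and 12.29 in control 2. The groups did not overlap, and each array gave nearly the same ratio, 0.29 on replicate 1 and 0.25 on replicate 2. The mean was 0.27 ± 0.031 (SD, n = 2), which is 1.21-fold, with a 95% interval of 0.006 to 0.54, an unadjusted p of 0.0458 and an adjusted p of 1.00 in limma. A second kept sequence gave 0.16 on replicate 1 and 0.03 on replicate 2, the same direction but smaller. The last of its sequences, at chr5:34074696-34074755 (mm9), was above background in 0 of 16 spots. The epithelial markers stood higher in the same knockout samples on both arrays, and their part in the Fgfr3 value was not tested.

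FGFR1, the main FGF receptor of mesenchyme, is encoded by a gene that was read by 3 kept sequences. The one used gave 14.93 in knockout 1, 15.34 in control 1, 15.06 in knockout 2 and 15.15 in control 2. Both knockout samples were below both controls, and most of the gap was on replicate 1, as ratios of -0.41 on replicate 1 and -0.09 on replicate 2 show. The mean was -0.25 ± 0.23 (SD, n = 2). The second gave -0.32 and 0.04. The last gave -0.04 and -0.09, a smaller ratio on replicate 1 than the other two.

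Fgfr4, a receptor of liver and skeletal muscle progenitors, read 11.22 in knockout 1, 11.49 in control 1, 11.01 in knockout 2 and 11.19 in control 2. Within each array the knockout was below the control, but control 2 was below knockout 1, so the groups overlapped. The mean ratio was -0.23 ± 0.07 (SD, n = 2), and a second kept sequence of Fgfr4 gave a mean of -0.11. Fgfrl1, a receptor-like protein without a kinase domain that is needed for kidney development, was 12.75 in knockout 1, 12.92 in control 1, 12.65 in knockout 2 and 12.78 in control 2. Its groups did not overlap and its ratios were even, with a mean of -0.15 ± 0.033 (SD, n = 2).

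Fgfr2, the receptor of the ureteric and urothelial epithelium for Fgf7 and Fgf10, read 10.41 in knockout 1, 10.52 in control 1, 10.40 in knockout 2 and 10.38 in control 2. Its samples overlapped, with a mean of -0.04 ± 0.10 (SD, n = 2) and a 95% interval of -0.31 to 0.23. A second, overlapping sequence gave a mean of -0.04.

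For Fgfr1, Fgfr3 and Fgfr4, 1 further kept sequence each is shown because it gave a mean closer to 0 than the sequence used for its gene. The further kept sequences of the other members did so too, except those of Fgf12 and Fgf14. Capitals mark the longest run that those of Fgfr1 and Fgfr4 share, 9 bases.
Fgfr1, further sequence: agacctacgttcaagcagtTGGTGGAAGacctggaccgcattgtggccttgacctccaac
Fgfr4, further sequence: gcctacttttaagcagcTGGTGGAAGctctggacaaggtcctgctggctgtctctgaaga
Fgfr3, further sequence: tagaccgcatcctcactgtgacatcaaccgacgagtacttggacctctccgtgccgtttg
In mm9 they lie at chr8:26684061-26684120, chr13:55269212-55269271 and chr5:34077856-34078090, all on the plus strand. The Fgfr3 sequence spans 235 bases of the genome with its 60 bases, so it crosses a splice junction. The means were -0.07, -0.11 and 0.10, against -0.25, -0.23 and 0.27 for the sequences used. Since a gene was its brightest kept sequence, every further sequence was dimmer. In control 1 the log2 intensities of these were 9.98, 7.99 and 8.17, against 15.34, 11.49 and 12.40 for the sequences used. The part of brightness in the smaller means was not tested.

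**Figure D4:**
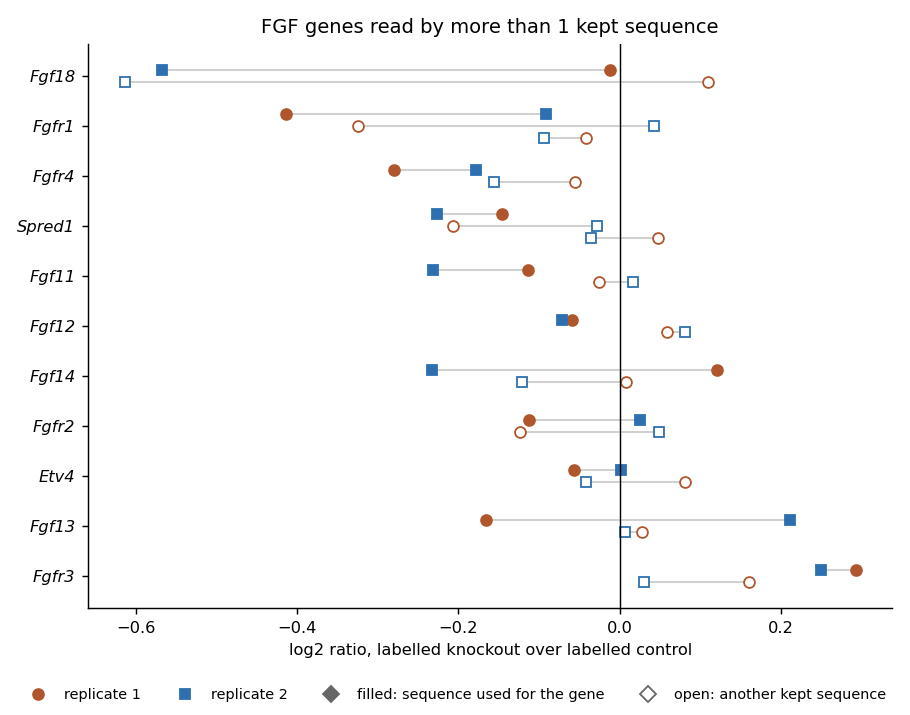
Log2 ratio of labelled knockout over labelled control (x axis) for each kept sequence of the 11 FGF genes (y axis) read by more than 1; circles are replicate 1, squares replicate 2, filled symbols the sequence used for the gene and open ones its other sequences. Of 13 other kept sequences, 10 had a mean of the same sign as the sequence used. All but those of Fgf12 and Fgf14 had a mean closer to 0 than the sequence used, which was the brightest kept one of its gene.

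Of the feedback genes, the Sprouties are intracellular proteins that block receptor signalling to RAS and ERK. Spry1, which restrains ureteric bud growth, read 12.13 in knockout 1, 12.54 in control 1, 12.32 in knockout 2 and 12.15 in control 2. The knockout was below the control on replicate 1 and above it on replicate 2, with ratios of -0.41 on replicate 1 and 0.17 on replicate 2. Spry2 was 8.74 in knockout 1, 9.11 in control 1, 9.01 in knockout 2 and 9.08 in control 2, with both knockout samples below both controls and a mean of -0.22 ± 0.22 (SD, n = 2).

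Spry4, another Sprouty, was even between arrays, at 7.68 in knockout 1, 7.88 in control 1, 7.68 in knockout 2 and 7.84 in control 2. Its groups did not overlap and its mean was -0.18 ± 0.032 (SD, n = 2). Spry3 gave a mean of -0.05 ± 0.09 (SD, n = 2). None of the 4 Sprouty genes passed the test.

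Spred proteins block RAS activation through neurofibromin. Spred1 was 11.67 in knockout 1, 11.81 in control 1, 11.55 in knockout 2 and 11.77 in control 2, with the knockout samples below both controls and a mean of -0.19 ± 0.06 (SD, n = 2). Its further sequences gave means of -0.12 and 0.01. Spred2 was 10.005 in knockout 1, 10.45 in control 1, 9.98 in knockout 2 and 9.95 in control 2, where control 1 alone was high and the ratios were -0.44 on replicate 1 and 0.04 on replicate 2. Spred3 gave a mean of -0.02 ± 0.16 (SD, n = 2).

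Dusp6, the phosphatase that removes the activating phosphates of ERK and is among the most used FGF readouts, was nearly level: 13.77 in knockout 1, 13.75 in control 1, 13.74 in knockout 2 and 13.70 in control 2. Its ratios were 0.02 on replicate 1 and 0.04 on replicate 2, the smallest of any member higher on both arrays, and the 95% interval of its mean ran from -0.24 to 0.29. Il17rd, a membrane protein that holds back ERK signalling, read 11.46 in knockout 1, 11.79 in control 1, 11.45 in knockout 2 and 11.44 in control 2. Control 1 stood above the other 3 samples, as it did for Fgf10 and Spred2, and the ratios were -0.32 on replicate 1 and 0.02 on replicate 2.

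Etv5, an ETS factor that acts downstream of receptor tyrosine kinases in the ureteric bud, had the widest gap between arrays of all 31 members. Its log2 intensity was 12.94 in knockout 1, 13.66 in control 1, 13.11 in knockout 2 and 12.85 in control 2. Control 1 was the highest sample and control 2 the lowest, with the knockout samples between them. The ratio was -0.71 on replicate 1 and 0.25 on replicate 2, a difference of 0.97 between arrays, while the standard error over the spots was 0.03 on replicate 1 and 0.01 on replicate 2. The mean was -0.23 ± 0.68 (SD, n = 2). Etv4, its close relative with overlapping roles in the bud, read 10.62 in knockout 1, 10.67 in control 1, 10.79 in knockout 2 and 10.79 in control 2, with a mean of -0.03 ± 0.042 (SD, n = 2). The 2 controls of Etv5 differed by more than either knockout did from the control on its own array.

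**Figure D5:**
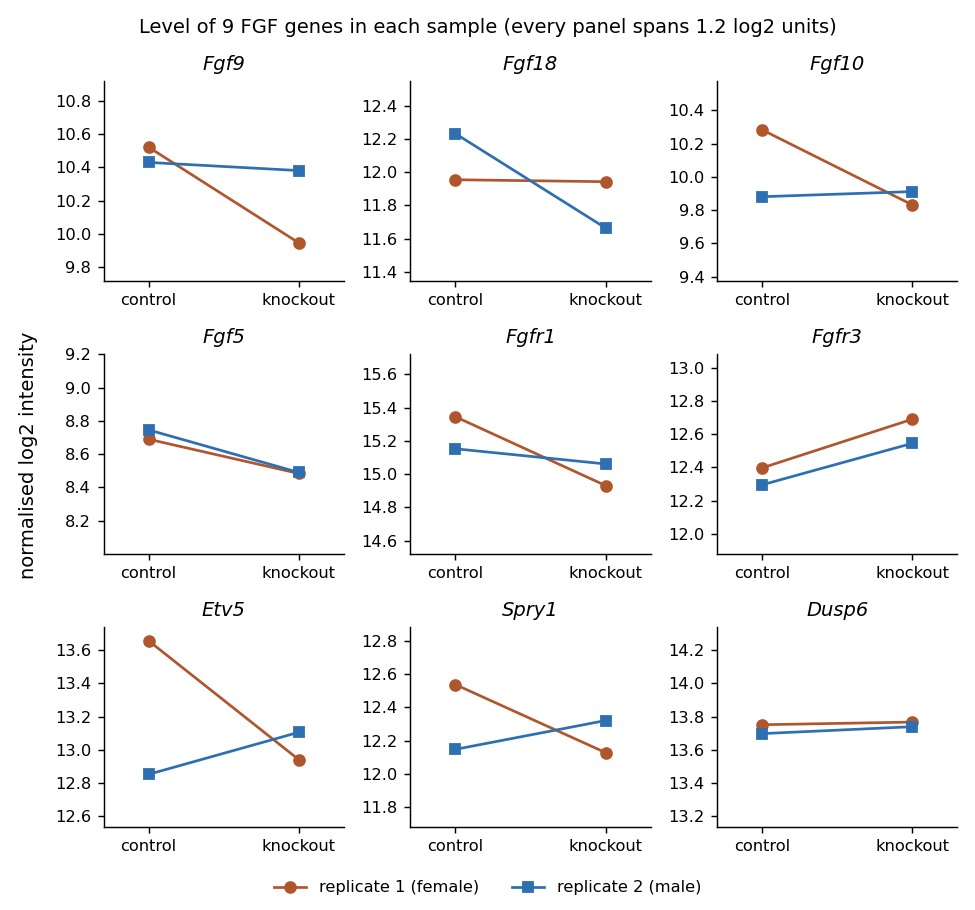
Normalised log2 intensity (y axis, 1.2 log2 units in each panel) of 9 FGF genes in the labelled control and knockout samples (x axis); lines join the samples of an array. The lines run nearly parallel for Fgf5 and Fgfr3, are nearly flat for Dusp6, and cross for Fgf9, Fgf10, Fgf18, Fgfr1, Etv5 and Spry1. From control to knockout, those of Fgf10, Etv5 and Spry1 fall on replicate 1 and rise on replicate 2.

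The upstream sequences of 28 of the 38 genes were matched by symbol in RefSeq (GRCm38.p6), with 36 start sites in all. In the 250 bases before each start, on both strands, 3 short motifs were searched that do not overlap one another: GGCGCC, a GC-rich element that BMP-activated SMADs can bind and that reads the same on both strands, CAGACA, which holds the core SMAD-binding element, and CCGGAA, the core of ETS sites. GGCGCC occurred in 7 of the 36 (19.4%) and in 9.59% of all 32851 upstream sequences. The 7 belonged to Etv5, Fgf2, Fgf4, Fgf12, Fgfr3 and Spred1. CAGACA occurred in 5 (13.9%, against 17.1% of all) and CCGGAA in 4 (11.1%, against 12% of all). The counts are small and describe letters in a window, not binding. The upstream sequences of Fgfr3 and Etv5 are printed because Fgfr3 was the one member called without adjustment and Etv5 had the widest gap between arrays; capitals mark GGCGCC.
Fgfr3, start 1, chr5:33721474-33721723, plus strand: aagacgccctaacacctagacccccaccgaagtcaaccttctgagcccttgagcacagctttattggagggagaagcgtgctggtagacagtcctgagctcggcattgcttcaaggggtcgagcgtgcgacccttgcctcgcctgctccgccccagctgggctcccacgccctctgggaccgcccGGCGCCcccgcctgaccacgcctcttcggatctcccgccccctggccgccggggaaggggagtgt
Fgfr3, start 2, chr5:33722056-33722305, plus strand: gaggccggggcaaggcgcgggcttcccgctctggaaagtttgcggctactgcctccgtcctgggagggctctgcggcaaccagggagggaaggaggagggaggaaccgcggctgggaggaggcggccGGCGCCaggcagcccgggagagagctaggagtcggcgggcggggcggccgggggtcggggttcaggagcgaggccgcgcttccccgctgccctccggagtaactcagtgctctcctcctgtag
Etv5, chr16:22439571-22439820, minus strand: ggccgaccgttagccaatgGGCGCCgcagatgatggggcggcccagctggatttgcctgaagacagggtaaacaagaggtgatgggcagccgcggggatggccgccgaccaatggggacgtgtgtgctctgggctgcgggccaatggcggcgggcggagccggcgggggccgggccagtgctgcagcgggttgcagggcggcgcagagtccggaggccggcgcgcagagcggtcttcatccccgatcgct
Each of these holds the motif 1 time, at 65, 123 and 231 bases before the start. A second Etv5 start held none, and neither did the upstream sequence of Fgf9, the member with the largest mean ratio.

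Genes of the pathway outside the family were read from 3 lists with 76 genes in all, of which 70 could be tested and 0 passed at adjusted p under 0.05 in limma, against 0.328% of all genes. At an unadjusted p under 0.05, 4 of the 70 were called: Sulf2, Sos1, Cic and Lrig1, against 4.55% of all genes. Of the co-receptors and heparan sulphate genes, 23 of 26 were tested, 6 were lower on both arrays and 7 higher (24.6% and 21.7% of all genes), with a median of -0.05. Those with the largest means were Sulf2 (-0.29) and Sulf1 (0.22), extracellular enzymes that trim heparan sulphate, and Gpc3 (-0.17), a heparan sulphate proteoglycan.

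Of the adaptors and RAS-ERK genes all 27 were tested, 8 were lower on both arrays and 1 higher (again against 24.6% and 21.7% of all genes), with a median of -0.06. The largest means were those of Sos1 (-0.33), the exchange factor that loads RAS, Akt1 (-0.17), a survival kinase, and Ptpn11 (-0.16), the SHP2 phosphatase that links receptors to RAS. Of the ERK feedback and target genes outside the family, 20 of 23 were tested, 11 were lower on both arrays and 1 higher (24.6% and 21.7% of all genes), and the median was -0.10. Cic, a repressor that ERK relieves, had a mean of -0.33, Lrig1, an inhibitor of receptor tyrosine kinases, -0.33, and Phlda1, an ERK-induced gene, -0.27. As with the family itself, each of the 3 lists had its lower median on replicate 1, at -0.07, -0.11 and -0.16, than on replicate 2, at 0.03, -0.009 and -0.08.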

How the data were processed

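Per the file headers, Agilent Feature Extraction (version 10.7.3.1) measured the intensity of each spot. The labels give 150 ng of RNA per sample. The score in the authors' deposited table, a fold with a sign, was used only as an alternative. Here the mean intensity of each spot was background-corrected (normexp, offset 50) and loess-normalised in limma 3.58.1 (R 4.3.3), outlier spots were dropped (3.52% and 3.66%), and the 4 spots of a sequence were averaged. A sequence was kept if 2 or more spots exceeded background by the scanner's criterion in the knockout channel of each array, or in the control channel of each (26522 of 39429). A gene was its brightest kept sequence. Intensities per sample followed Aquantile normalisation. Limma tested the 2 log2 ratios against 0, two-sided, over 20104 genes, with a prior of 9.21 degrees of freedom, so the number of arrays limits the precision. The pairing is that of the arrays: the samples of an array share its slide position and hybridisation. No spot was saturated.

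The members and lists were chosen with earlier results of these data known. Named in full are the 14 members with the largest mean of one sign, the 6 with the widest opposite-sign gap, all receptors, and 3 genes per pathway list. Fgf8, Dusp6, Il17rd and Etv4 were added for their role after their values were seen, and other members are given by mean or ratios. The marker lists of smooth muscle, skeletal muscle, endothelium, macrophages and kidney had median ratios of -0.03, 0.59, 0.06, 0.12 and -0.04 on replicate 1 and 0.11, 0.15, -0.18, 0.10 and 0.15 on replicate 2. The summed intensity of the 11 kidney markers tested turned over between the arrays. It was 28521 in knockout 1, 37402 in control 1, 42133 in knockout 2 and 32496 in control 2. The part of this shift in the FGF results was not tested. Array coordinates are those of the design (mm9); exon and UTR annotation of that build was not used here. Upstream sequences came from RefSeq (GRCm38.p6), and plots from matplotlib 3.10.9. The test was tried on simulated data. Alternatives covered background, normalisation, filter, sequence choice, source, prior and pairing.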

Additional observations from a re-analysis of the deposited data

Results flagged for a closer look

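Of the 31 FGF genes tested, 14 had ratios of opposite sign on the 2 arrays (45.2%, against 53.7% of all genes), and in 6 of them each ratio was more than 2 spot standard errors from 0 (19.4%, against 27.2% of all genes). Both shares were below those of the array as a whole. The female array (replicate 1) and the male array (replicate 2) therefore gave opposite signs for these genes. Etv5 read -0.71 and 0.25, Spry1 -0.41 and 0.17, Fgf22 -0.41 and 0.39, Fgf13 -0.17 and 0.21, Fgf1 -0.15 and 0.22, and Fgf14 0.12 and -0.23, each on replicate 1 and then replicate 2. With 1 array per sex the difference was not tested, and sex, dye orientation and the samples themselves cannot be told apart. In 5 of the 6, all but Fgf14, the Cy5 channel was the brighter one on both arrays.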

How the results depend on the processing

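No FGF gene passed adjusted p under 0.05 in limma under any alternative tried, although the count over all genes ranged from 0 (median centring, no filter) to 194 (Agilent's processed signals), against 66 here. With the 4 channels as unpaired samples (no replicate block) 0 members and 26 genes passed. At an unadjusted p under 0.05 the members called ranged from 0 to 3. The median over the members lay between -0.17 (the authors' deposited values) and -0.08 (no filter), and stayed below 0; it ran from -0.15 to -0.024 when each array was left out, and the lower size belongs to replicate 2 alone. The count of members 1.5-fold apart was 0, and 0 to 1 with each array left out, the 1 being Etv5 on replicate 1. Leaving out the 8 members with disagreeing sequences, chosen after seeing the data, gave -0.17. With both arrays in use, Fgf12 alone of the single genes turned direction, to 0.0022 with the mean over its sequences. The size of some dim members varied with background correction and signal source. The mean of Fgf2 was -0.08 here, -0.14 with normexp offset 0 and -0.22 with Agilent's processed signals. For Spry4 these were -0.18, -0.24 and -0.29. Fgf13, also dim, was 0.02 both here and with Agilent's processed signals. The 14 members of opposite sign on the 2 arrays each turn direction when 1 of the arrays is left out. With 2 arrays, differences the size of those seen here mostly stay inside the 95% interval of a single gene.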
